A study of Rattus norvegicus with 14 samples.

Results

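Transcripts of 5 protein kinase C isoforms, Prkca, Prkcb, Prkcd, Prkce and Prkcz, and of 3 neuronal substrates of the kinase, Nrgn (neurogranin), Gap43 (GAP-43, also called neuromodulin) and Marcks, were examined in rat dentate gyrus. They were taken as every probe set whose single gene symbol in the platform annotation was 1 of these 8 names, whatever its values. The 8 genes themselves were chosen with earlier results of these data known. This gave 15 of the array's 15866 probe sets other than controls, for 8 of 10412 genes. Prkca, Prkcd, Prkce, Prkcz and Nrgn had 1 probe set each, Prkcb and Gap43 had 2, and Marcks had 6.

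Protein kinase C isoforms are serine/threonine kinases. The classical isoforms, here Prkca and Prkcb, are switched on by calcium together with diacylglycerol. The calcium-independent isoforms Prkcd and Prkce need diacylglycerol alone, and the atypical isoform Prkcz needs neither. Diacylglycerol is released with inositol trisphosphate (IP3) when phospholipase C cleaves the membrane lipid PIP2, for instance below metabotropic glutamate or muscarinic receptors. Neurogranin in dendrites and GAP-43 in axons bind calmodulin through an IQ motif and let go of it when protein kinase C phosphorylates them, and MARCKS leaves the membrane on phosphorylation. These proteins have long been studied in hippocampal long-term potentiation. The arrays measured RNA, so neither kinase activity nor phosphorylation was measured here.

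The tissue came from young male rats of the Long-Evans strain, 3 to 4 months old, with 7 rats per group and 1 array per rat; no genetic change or drug is named for either group. All 14 rats had learned a standard water maze 2 to 3 weeks before and were then given a single session, 8 trials long, at another site. For learning rats the visible platform stayed in place among orienting cues, whereas for control rats it moved from trial to trial and informative cues were lacking. A probe trial of 90 s came 1 h later, and the rats were killed directly afterwards.

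Values are log2 expression per probe set, so a difference of 1 is a factor of 2. Probe sets differ in how well they bind, so levels were not compared between genes, and within a gene brightness only names the probe sets. Array medians lay between 5.09 and 5.12. The granule cell markers Prox1, a transcription factor, and Calb1, a calcium-binding protein, averaged 10.30 and 10.81. The mean of 5 measured out of 13 granule cell markers was 9.12 ± 0.06 for controls and 9.25 ± 0.06 for learning rats (SD, n = 7 each; exact permutation p = 0.00408, unadjusted), with overlapping ranges. Its members differed by 0.44 (Dsp), 0.22 (Stxbp6), 0.08 (Prox1), -0.03 (Calb1) and -0.05 (Il16), so the first and second carry most of it. For 8 measured out of 15 CA1 markers it was 6.69 ± 0.35 and 6.97 ± 0.15 (SD, n = 7 each; exact permutation p = 0.0728). These differed by 0.95 (Wfs1), 0.53 (Gpr161), 0.37 (Mpped1), 0.31 (Fibcd1), 0.30 (Ccn3), 0.0025 (Lmo3), -0.05 (Itpka) and -0.17 (Dcn). Dcn was also listed as a meningeal marker. Of the 2 measured choroid plexus markers, Ttr differed by -1.78, with every learning rat below every control, and Enpp2 by -0.04. A dissected sample is a mixture, so fewer cells of a type and less RNA per cell cannot be told apart.

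No protein kinase C isoform or substrate transcript differed detectably between the groups. Of the 15 probe sets, 14 had a mean of at least 4 and entered limma's moderated test; 8 of these were higher and 6 lower in learning rats. On the brightest probe set of each gene, 4 of the 8 genes were higher, beside 50.6% of all 6697 tested genes. In limma 0 of the 14 passed a Benjamini-Hochberg adjusted p of 0.05, and 0 of all 9387 tested probe sets did (0%). On simulated data with 200 of 9387 probe sets changed, this test recovered 21.1% of those changed by 0.25 log2 units, so changes of that size could be missed. The share holds for that setting and is not the recovery of any single member, since members differ in spread. At an unadjusted p below 0.05 there were 0 of the 14 and 1230, or 13.1%, of all tested probe sets (6.43% higher and 6.67% lower). The exact permutation test over rats gave no p below 0.0664. The median absolute difference of the 14 was 0.07 log2 units, beside 0.08 over all tested probe sets. The groups separated without overlap in 0 of the 14 and in 0.405% of all tested probe sets.

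**Figure D1:**
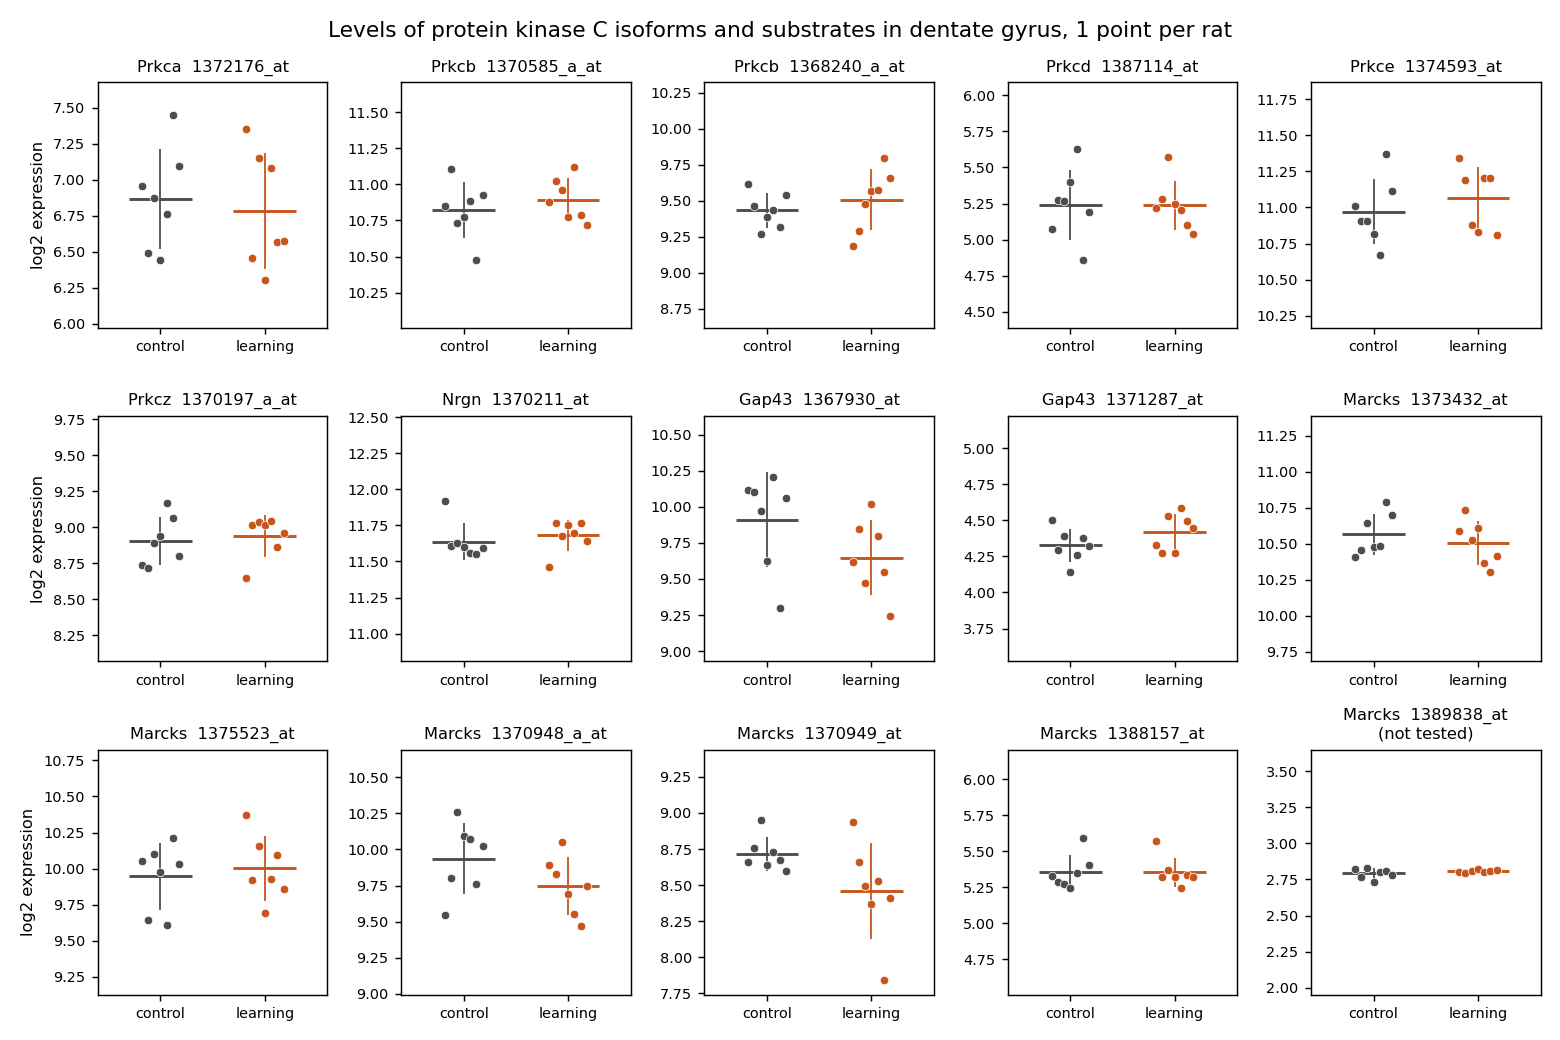
Log2 expression of the 15 probe sets in each rat, with mean and SD of the 7 control and 7 learning rats. Control and learning points overlap for every probe set, and Prkca shows the widest scatter.

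Among the classical isoforms, Prkca had the widest spread between rats. Its probe set ranged from 6.44 to 7.45 among controls (median 6.87) and from 6.30 to 7.35 among learning rats (median 6.58). The groups covered nearly the same range, and 3 of 7 learning rats lay above the control median. Controls averaged 6.87 ± 0.35 and learning rats 6.78 ± 0.40 (SD, n = 7 each), a difference of -0.08 ± 0.18 (SE; adjusted p = 0.860 in limma). Its SD within groups, 0.38, was larger than that of 96.6% of the tested probe sets. The 95% confidence interval of the learning-to-control ratio accordingly ran from 0.721 to 1.23. Without control replicate 6, the highest rat at 7.45, the difference was 0.012.

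Prkcb, the other classical isoform, was read by 2 probe sets designed on the same sequence record. The brighter ranged from 10.47 to 11.10 among controls (median 10.85) and from 10.72 to 11.12 among learning rats (median 10.88). The dimmer ranged from 9.27 to 9.62 among controls (median 9.43) and from 9.19 to 9.80 among learning rats (median 9.57). On both, the groups overlapped over most of their ranges. The difference was 0.07 ± 0.09 on each (SE; adjusted p = 0.736 and 0.729 in limma). The ratio's confidence interval ran from 0.923 to 1.20 on the brighter and from 0.924 to 1.20 on the dimmer, so a larger change lay outside both. Leaving out single rats gave 0.02 (without control replicate 6) to 0.12 (without control replicate 2) on the brighter. On the dimmer it gave 0.03 (without learning replicate 6) to 0.13 (without learning replicate 1).

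Prkcd, a calcium-independent isoform known for its abundance in thalamus, lay close to the array medians. It ranged from 4.86 to 5.63 among controls (median 5.27) and from 5.04 to 5.57 among learning rats (median 5.22). The groups overlapped, with 1 control rat below and 1 above all learning rats. Both groups averaged 5.24, with SDs of 0.24 for controls and 0.17 for learning rats (n = 7 each), and the difference was -0.0039 ± 0.11 (SE; adjusted p = 0.992 in limma). Its sign turned in 10 of 25 alternative analyses. Of 14 thalamic markers, 3 were above the filter level of 4 (Tcf7l2, Ptpn3 and Adarb1), while the thalamic glutamate transporter Slc17a6 averaged 3.07 and the transcription factor Lef1 2.67.

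Prkce, the other calcium-independent isoform, is known as a presynaptic kinase. It ranged from 10.67 to 11.37 among controls (median 10.91) and from 10.81 to 11.34 among learning rats (median 11.19). Learning rats lay in an upper set of 4, all above the control median, and a lower set of 3, all below it. The difference of means was 0.10 ± 0.11 (SE; adjusted p = 0.724 in limma), with a ratio between 0.907 and 1.26. Without control replicate 5, the lowest, it was 0.05; without control replicate 6, the highest, it was 0.16; and with the CA1 marker mean as covariate it was 0.22 (adjusted p = 0.448 in limma).

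The atypical isoform Prkcz, whose gene also yields the constitutively active brain form PKM-zeta, ranged from 8.72 to 9.17 among controls (median 8.89) and from 8.65 to 9.04 among learning rats (median 9.01). Learning replicate 1 lay below every control, and 5 of 7 learning rats lay above the control median. The difference was 0.04 ± 0.08 (SE; adjusted p = 0.868 in limma), and the ratio's confidence interval ran from 0.909 to 1.16. Leaving out single rats gave 0.0053 (without control replicate 2) to 0.08 (without learning replicate 1), and the sign turned with the CA1 or thalamic marker mean as covariate. The annotation names the gene only, so full-length Prkcz and PKM-zeta transcripts were not separated.

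Nrgn, a postsynaptic substrate, ranged from 11.55 to 11.92 among controls (median 11.60) and from 11.46 to 11.77 among learning rats (median 11.70). Replicate 1 stood apart in both groups, as the highest of all rats among controls and the lowest of all among learning rats. The other 6 controls reached 11.63 at most and the other 6 learning rats 11.64 at least. Over all rats the difference was 0.04 ± 0.07 (SE; adjusted p = 0.797 in limma), with a ratio between 0.936 and 1.14. It was 0.09 without control replicate 1 and 0.08 without learning replicate 1 (adjusted p = 0.465 and 0.553 in limma). The 2 rats were picked by their values, so the split of the other rats follows in part from that choice. No test was made without both, and how many other probe sets would split after such a removal was not counted.

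Gap43, a growth cone and axon terminal protein whose RNA in adult hippocampus is known mostly from CA3 and hilar cells, had the largest difference of the 14 probe sets. Its bright probe set read 10.12, 10.10, 9.97, 9.63, 10.20, 9.30 and 10.06 in control replicates 1 to 7. Learning replicates 1 to 7 read 9.62, 9.84, 9.47, 10.02, 9.79, 9.55 and 9.24. None of the 7 learning rats reached the control median of 10.06 and 4 controls lay above every learning rat, but control replicates 3, 4 and 6 lay among the learning values. Controls averaged 9.91 ± 0.33 and learning rats 9.65 ± 0.26 (SD, n = 7 each). The difference of -0.26 ± 0.14 (SE), a ratio of 0.834 with a confidence interval from 0.673 to 1.03, did not pass the test (unadjusted p = 0.0900, adjusted p = 0.461 in limma; exact permutation p = 0.122).

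This Gap43 difference was larger in size than that of 93.1% of the tested probe sets. It was picked as the largest of 14, and the largest of so many ranks high by that choice alone. Leaving out single rats gave -0.36 to -0.19; the first value was without control replicate 6, where limma's unadjusted p was 0.0093 and the adjusted p 0.210. With the CA1 marker mean as covariate the difference was -0.42 (adjusted p = 0.318 in limma). The 5 measured out of 12 CA3 markers differed in both directions, by -0.27 (Cadm1), -0.27 (Elavl4), 0.13 (Grik4), 0.16 (Chgb) and 0.29 (Bok); their part in the Gap43 values was not tested. The second Gap43 probe set, near the filter level, ranged from 4.14 to 4.50 among controls (median 4.32) and from 4.28 to 4.59 among learning rats (median 4.45). It differed by 0.09 ± 0.07 (SE; adjusted p = 0.556 in limma), opposite in sign to the bright one. With both Gap43 probe sets averaged per rat, the difference was -0.08 (adjusted p = 0.674 in limma).

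Marcks, which binds the membrane, PIP2 and actin, had the most probe sets and no common direction among them. The brightest ranged from 10.41 to 10.79 among controls (median 10.48) and from 10.30 to 10.73 among learning rats (median 10.53), with a difference of -0.06 ± 0.08 (SE; adjusted p = 0.769 in limma). The second by brightness ranged from 9.61 to 10.21 among controls (median 10.03) and from 9.69 to 10.37 among learning rats (median 9.93), with a difference of 0.06 ± 0.11 (SE; adjusted p = 0.847 in limma). The fifth, at a mean of 5.35, differed by 0.0005 ± 0.06 (SE; adjusted p = 0.998 in limma). On these 3 probe sets the groups overlapped widely.

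The third and the fourth Marcks probe sets had lower means in learning rats; they and the fifth were designed on 1 sequence record. The third ranged from 9.54 to 10.26 among controls (median 10.02) and from 9.47 to 10.05 among learning rats (median 9.74), with a difference of -0.19 ± 0.11 (SE; adjusted p = 0.488 in limma). The fourth ranged from 8.60 to 8.95 among controls (median 8.67) and from 7.84 to 8.94 among learning rats (median 8.49). On the fourth, 5 of 7 learning rats lay below every control, whereas learning replicate 1 came close to the highest control. Its difference of -0.25 ± 0.12 (SE) had the smallest p of the 14 (unadjusted p = 0.0574, adjusted p = 0.397 in limma; exact permutation p = 0.0664). It was -0.15 without learning replicate 6, the lowest rat at 7.84, and -0.33 without learning replicate 1, the highest learning rat (adjusted p = 0.553 and 0.227 in limma). The sixth probe set averaged 2.79 for controls and 2.81 for learning rats, below the filter, and was not tested. With the tested Marcks probe sets averaged per rat, the difference was -0.09 (adjusted p = 0.614 in limma).

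**Figure D2:**
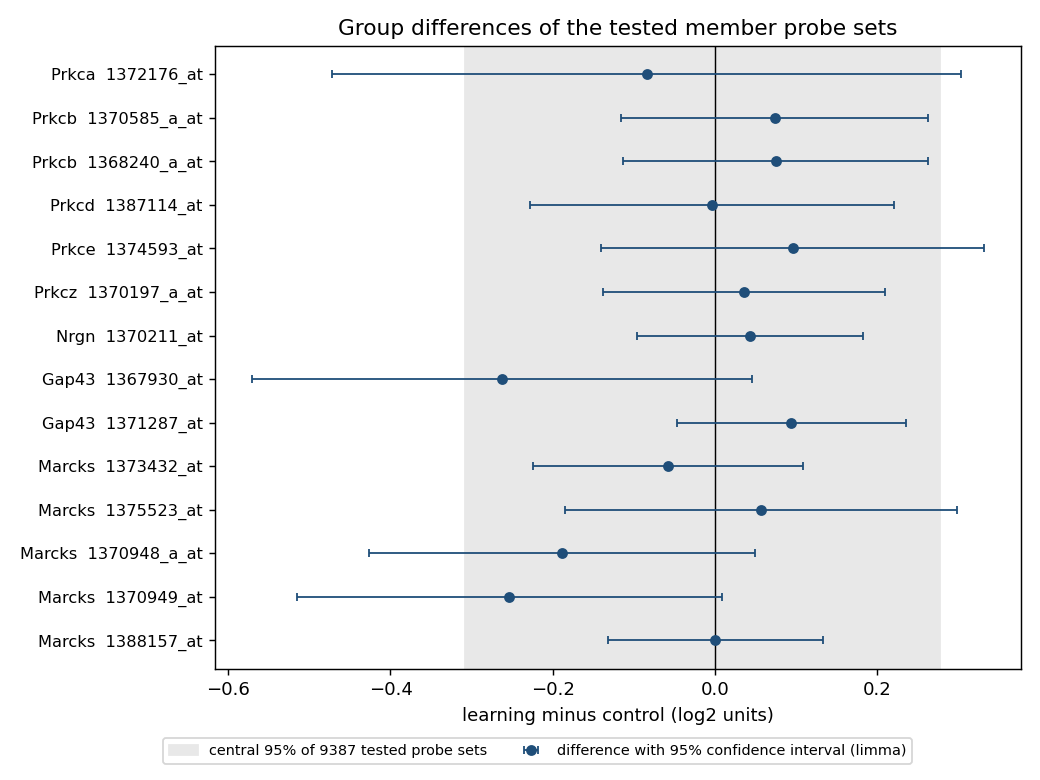
Learning minus control for the 14 tested probe sets, in log2 units, with 95% confidence intervals from limma; the grey band holds the central 95% of the differences of all 9387 tested probe sets, from -0.31 to 0.28. Every interval includes 0 and every difference lies inside the band; the lowest are the bright Gap43 probe set at -0.26 and the fourth Marcks probe set at -0.25.

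Probe sets of a gene can read different transcript forms, so the brightest minus each other tested probe set was compared between groups over all genes with more than 1. Of 1099 such pairs in 922 genes, 4 (0.364%) passed an adjusted p of 0.05 in limma and 16.7% had an unadjusted p below 0.05. Of the 6 pairs within Gap43, Marcks and Prkcb, 0 passed and 1 had an unadjusted p below 0.05. That was Gap43, whose bright probe set exceeded the dim one by 5.58 ± 0.33 in controls and by 5.23 ± 0.34 in learning rats (SD, n = 7 each). The difference of -0.36 ± 0.16 (SE) had an adjusted p of 0.296 in limma and an exact permutation p of 0.0711. For Prkcb it was -0.0012 ± 0.13 (SE; adjusted p = 0.996 in limma). For the 4 Marcks pairs it lay between -0.12 and 0.20, with adjusted p values from 0.446 to 0.752 in limma.

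Variation between rats was shared only in part by probe sets of a gene. After group means were subtracted, Pearson's r over the 14 rats was 0.01 for the Prkcb probe sets and -0.13 for the Gap43 probe sets. The brightest Marcks probe set had r values of 0.28 to 0.53 with the other tested ones. The median over all 1099 pairs was 0.15. These values are descriptions without test.

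**Figure D3:**
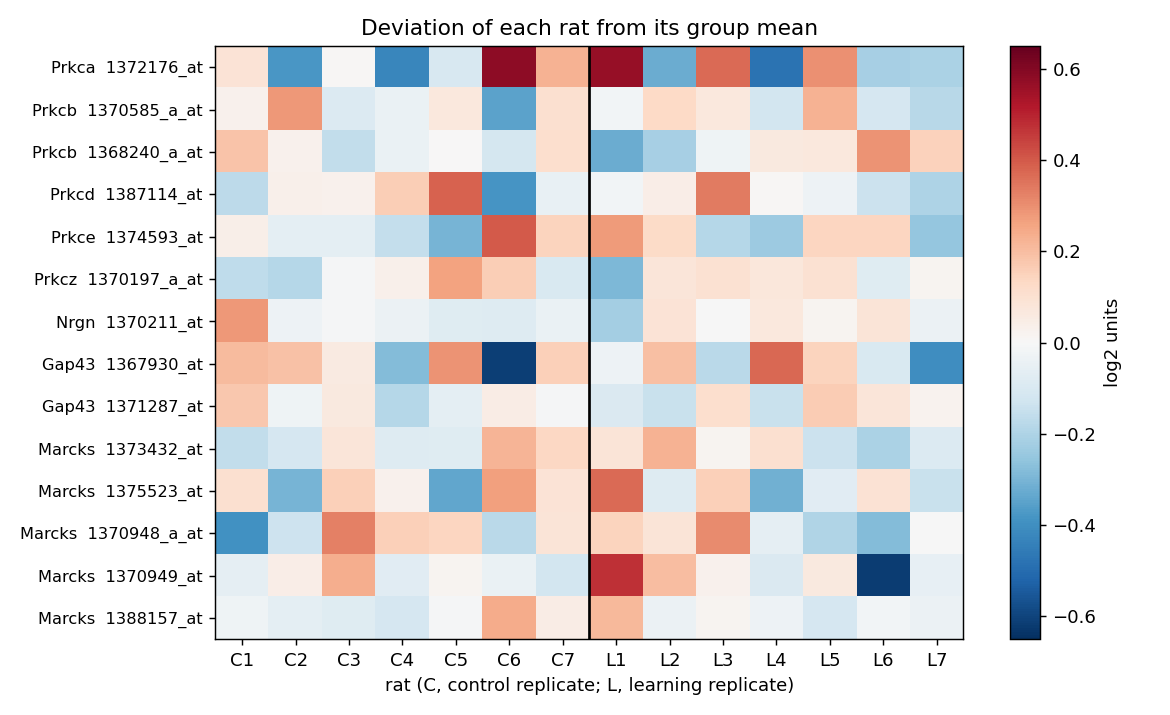
Deviation of each rat from its group mean, in log2 units, for the tested probe sets, by replicate of the control and learning groups. Control replicate 6 was high for Prkca and Prkce and low for Prkcd, the brighter Prkcb and the bright Gap43 probe set; probe sets of 1 gene do not all share a pattern.

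Genes were also compared by their variation between rats, on each gene's brightest probe set with group means subtracted; these relations were chosen after the data were seen. Of 28 gene pairs, 10 had a positive r and 3 had an unadjusted permutation p below 0.05. The 2 probe sets of Prkcb had r = 0.01 with each other and those of Gap43 r = -0.13, so their relations hold for the probe set used. The brighter Prkcb and the bright Gap43 probe set varied in the same direction (r = 0.66, permutation p = 0.0194; rho = 0.45, permutation p = 0.121). So did Prkca and Prkce (r = 0.61, permutation p = 0.0292; rho = 0.53, permutation p = 0.0683). Prkcd and Prkce varied inversely (r = -0.62, permutation p = 0.0234; rho = -0.52, permutation p = 0.0734). Of 140 relations computed, including those with marker means, 10 had an unadjusted p of r below 0.05 and 0 passed adjustment; the lowest adjusted p was 0.468. Without the 2 rats farthest from the median of the gene named first, r was 0.42, 0.29 and -0.28, so these relations were weaker without such rats. Leaving out the farthest rats narrows the range, which can weaken r by itself. For Prkcd and Prkce, r was -0.95 among controls and -0.16 among learning rats; that difference was not tested.

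Of the 14 marker means, 3 had an unadjusted permutation p below 0.05 for r with Prkcd, and none passed adjustment. With the meningeal mean, over 10 measured out of 14 genes, r was 0.66 (permutation p = 0.0105, adjusted p = 0.468; rho = 0.60, permutation p = 0.0363, adjusted p = 0.790), and 0.83 without the 2 farthest rats. With the mean of 6 measured endothelial markers, r was 0.70 (permutation p = 0.0118, adjusted p = 0.468; rho = 0.71, permutation p = 0.00758, adjusted p = 0.716), and 0.68 without the 2 farthest rats. With the astrocyte mean, r was 0.60 (permutation p = 0.0408, adjusted p = 0.626; rho = 0.71, permutation p = 0.0114, adjusted p = 0.716), and 0.41 without them. With the choroid plexus and CA1 means, r was 0.59 and 0.55 (permutation p = 0.0625 and 0.0894). For oligodendrocytes, their precursors, microglia and blood, r lay between 0.13 and 0.34. With the thalamic mean r was 0.09, and with the granule cell, CA3, interneuron and immature neuron means it lay between -0.16 and -0.08. Of the other members, Prkce varied inversely with the meningeal mean (r = -0.63, permutation p = 0.0229, adjusted p = 0.468). So did Marcks with the CA3 mean (r = -0.65, permutation p = 0.0162, adjusted p = 0.468). Prkca did so with the mean of oligodendrocyte precursors (r = -0.57, permutation p = 0.0465, adjusted p = 0.626). The meningeal mean was 6.24 ± 1.09 for controls and 5.95 ± 1.14 for learning rats (SD, n = 7 each). The endothelial mean was 7.08 ± 0.15 for controls and 7.09 ± 0.12 for learning rats (SD, n = 7 each).

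Nrgn varied inversely with the haemoglobin transcript Hbb (r = -0.79, permutation p = 0.0113, adjusted p = 0.468; rho = -0.60, permutation p = 0.0235, adjusted p = 0.790). Without the 2 rats farthest in Hbb, r was -0.37, so the relation was weaker without them, although a narrower range can weaken r by itself. Control replicate 1 had Nrgn at 11.92 and Hbb at 10.46, and learning replicate 1 had Nrgn at 11.46 and Hbb at 11.76. The part of blood RNA in the Nrgn values was not tested.

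The genes most like each member over the 14 rats were taken from 6696 other genes by Pearson's r with group means subtracted, as a description without test. Picked as the highest of 6696 values, these r are raised by selection. Without the 2 rats farthest in the member, they ran from 0.60 (Ss18 with Nrgn) to 0.93 (Cux1 with Prkcd). Prkca was followed by Spire1, an actin nucleator (r = 0.87), Parg and Mrpl40 (both r = 0.83). Prkcb was followed by Babam2 (r = 0.87), Pik3ip1 (r = 0.86) and the synaptic vesicle gene Syp (r = 0.84). Prkcd was followed by the transcription factor gene Cux1 (r = 0.91), Snx5 and Slc25a29 (both r = 0.89).

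Prkce was followed by Abi1, an adaptor of the actin-regulating WAVE complex (r = 0.93), Atf2 (r = 0.88) and the adhesion gene Negr1 (r = 0.86). Prkcz was followed by Dhrs7b, Ngdn (both r = 0.82) and Mrtfa (r = 0.81). Nrgn was followed by Basp1 (r = 0.90), Mrps18b (r = 0.89) and Ss18 (r = 0.86); without the 2 rats farthest in Nrgn, r with Basp1 was 0.60. Gap43 was followed by Tmem147, Mpp3 (both r = 0.88) and Arl15 (r = 0.85). Marcks was followed by the postsynaptic density genes Lrrc7 (r = 0.86) and Dlg2 (r = 0.83) and by Scrg1 (r = 0.81).

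Genes around the kinase were grouped into 9 lists, in which 78 of 128 different genes were tested, each by its brightest probe set. Of these, 41 were higher and 37 lower in learning rats. At an unadjusted p below 0.05, 8 were higher and 7 lower, beside 5.99% higher and 6.66% lower over all tested genes (12.6% in all), and 0 passed the adjusted threshold in limma. The median difference of the 78 genes was 0.02, beside 0.0018 over all tested genes.

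Upstream, 6 of 17 listed receptors and G protein regulators were tested, 3 higher and 3 lower. Chrm3, a muscarinic receptor coupled to phospholipase C, averaged 6.25 ± 0.25 in controls and 6.54 ± 0.19 in learning rats (SD, n = 7 each), a difference of 0.28 ± 0.11 (SE; adjusted p = 0.318 in limma). Rgs4, which dampens Gq signals, differed by 0.22 (adjusted p = 0.455 in limma). Of 7 tested phospholipase C and phospholipase C-like genes, 6 were higher, beside 50.6% of all tested genes. In limma, 1 of the 7 was higher and 1 lower at an unadjusted p below 0.05. Plcb1, a hippocampal isoform below Gq-coupled receptors, averaged 9.07 ± 0.15 in controls and 9.32 ± 0.16 in learning rats (SD, n = 7 each), a difference of 0.25 ± 0.08 (SE; adjusted p = 0.241 in limma). Plcd1 differed by -0.10 (adjusted p = 0.377 in limma).

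Of 8 diacylglycerol kinase and lipase genes, which act on diacylglycerol and related lipids, 5 were higher and 3 lower. Dgkb, a diacylglycerol kinase, averaged 8.60 ± 0.16 in controls and 8.98 ± 0.26 in learning rats (SD, n = 7 each). The groups did not overlap for Dgkb, as for 0.405% of all tested probe sets. Its difference of 0.38 ± 0.11 (SE) did not pass adjustment (adjusted p = 0.212 in limma). Without learning replicate 5, the highest learning rat at 9.55, the Dgkb difference was 0.29. Mgll, monoacylglycerol lipase, had the smallest p of the 78 genes, with a difference of 0.30 ± 0.07 (SE; adjusted p = 0.167 in limma). Its 3 further probe sets read -0.41, -0.07 and -0.01. Of 6 tested genes of the IP3 branch, 3 were higher. Itpr1, the receptor that releases calcium from stores, differed by 0.22 ± 0.07 (SE) and Inpp1, an inositol phosphatase, by -0.08 (adjusted p = 0.238 and 0.578 in limma).

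Of 4 tested PKC, PKD and PKN relatives, 1 was higher. Prkci, the other atypical isoform, differed by 0.03 and Prkd2 by -0.11 (adjusted p = 0.893 and 0.588 in limma). Of 17 anchors, adaptors and inhibitors, 7 were higher and 10 lower. The 14-3-3 gene Ywhaz differed by -0.12, and by 0.20 on its second probe set; Sqstm1, an adaptor of atypical isoforms, differed by 0.12 (adjusted p = 0.354 and 0.405 in limma for the brighter probe sets). Of 5 other diacylglycerol receptors with a C1 domain, 4 were higher; Chn1 differed by -0.09 and Rasgrp2 by 0.05 (adjusted p = 0.524 and 0.684 in limma).

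Of 16 other substrates, 8 were higher and 8 lower. At an unadjusted p below 0.05 in limma, 1 of the 16 was higher and 4 lower, and 0 passed adjustment. Over all tested genes the shares were 5.99% higher and 6.66% lower. Basp1, which resembles GAP-43 and MARCKS in binding calmodulin and the membrane, averaged 11.26 ± 0.20 in controls and 11.01 ± 0.14 in learning rats (SD, n = 7 each), a difference of -0.25 ± 0.09 (SE; adjusted p = 0.264 in limma). Gria1, an AMPA receptor subunit phosphorylated by the kinase, differed by -0.45 ± 0.16 (SE; adjusted p = 0.280 in limma). Among 9 genes of calmodulin and proteins that bind it, 4 were higher and 5 lower. The striatin genes Strn3 and Strn4 differed by 0.26 and -0.25 (adjusted p = 0.210 and 0.241 in limma).

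**Figure D4:**
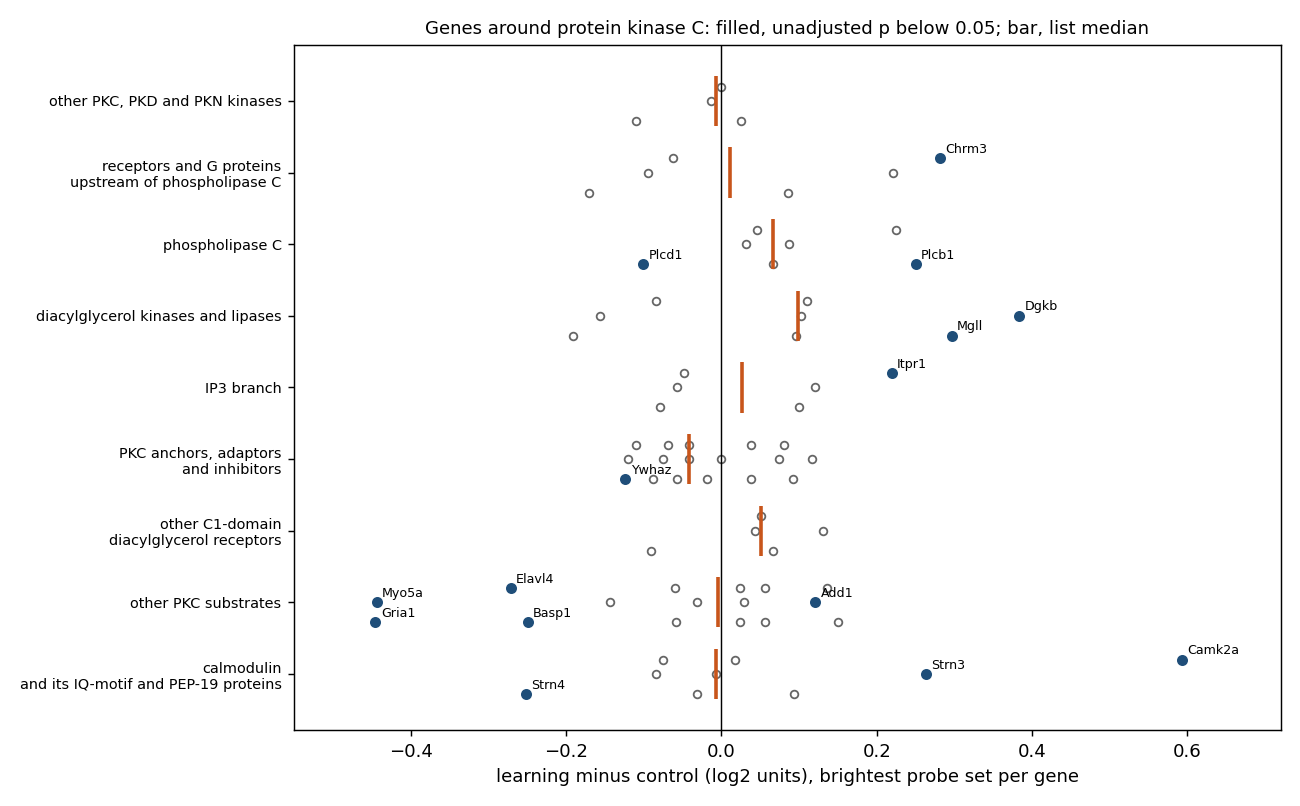
Learning minus control in log2 units for the tested genes of 9 lists around protein kinase C, 1 point per gene. Genes with an unadjusted p below 0.05 in limma are named; they lie on both sides of 0, and none passed the adjusted threshold.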

How the data were processed

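Total RNA of 14 dentate gyrus samples went to Affymetrix RAE230A arrays, 1 per rat, per the labels' protocols. The deposited values are log2 expression per probe set, made by the authors with GCRMA, per the submitters' processing notes. Its version and settings: not given in the sources used here. Background correction of this kind can compress differences of dim probe sets. Replicates are separate rats by title, and no batch is labelled. The number of arrays limits the precision.

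Of 15923 probe sets, 57 controls were left out; 12783 had 1 gene symbol, 312 several and 2771 none. The 9387 probe sets averaging 4 or more were tested with limma 3.58.1 in R 4.3.3 (lmFit, eBayes, no covariate, Benjamini-Hochberg over all tested), and within-gene pairs likewise, with 95% confidence intervals. Both were tested on simulated data, with 200 of 9387 probe sets or 200 of 1099 pairs changed, in 10 runs per size. At a change of 0.25 log2 units, 21.1% of changed probe sets and 4.25% of changed pairs were recovered. At 0.5 log2 units, 80.25% and 75.3% were recovered. Exact permutation tests were two-sided over 3432 assignments (smallest p 0.000583); relations across rats used 100000 two-sided permutations within groups. The members and lists were chosen with earlier results of these data known. Named were all members, the 2 genes of smallest p per pathway list, the 3 genes most like each member, and marker means; single marker genes were named after their values were seen. Alternatives changed the filter, normalization, prior, array weights, replicate block, floor, marker covariates, probe set summary and single rats. Figures were drawn with matplotlib 3.10.9.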

Additional observations from a re-analysis of the deposited data

Results flagged for a closer look

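A rat was singled out when its gap to the nearest rat of its group was large against the group's range. Chance alone singles out about 1 in 20 groups of 7, and 9 of 92 were. Control replicate 1 was the highest control for Nrgn at 11.92, and learning replicate 1 the lowest learning rat at 11.46. Learning replicate 1 was also highest for the fifth Marcks probe set, at 5.57. Learning replicate 7 was lowest for Plcd1 at 4.44, learning replicate 5 highest for Dgkb at 9.55, control replicate 4 lowest for Rasgrp2 at 4.16, and control replicate 1 highest for Basp1 at 11.68. The CA1 marker mean was highest in control replicate 5 at 7.40, and the immature neuron marker mean lowest in learning replicate 4 at 8.28.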

How the results depend on the processing

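The directions of both Prkcb probe sets, Prkce, Nrgn, both Gap43 probe sets and the first, the third and the fourth Marcks probe sets held in every alternative run, and no member passed adjustment in any (lowest adjusted p = 0.210 in limma). The sign turned for Prkcd with median centring (0.00092) and with the meningeal (0.032) or thalamic (0.010) marker mean as covariate; for Prkca with the CA1 covariate (0.0099); for Prkcz with the CA1 (-0.012) and thalamic (-0.010) covariates; for the fifth Marcks probe set with the meningeal (-0.0032) and thalamic (-0.0041) covariates; for Prkci with the thalamic covariate (-0.014); and for the Prkcb pair with quantile normalization (0.00062) and the meningeal (0.0089) and thalamic (0.047) covariates. Leaving out single rats gave -0.18 to 0.012 for Prkca, -0.068 to 0.060 for Prkcd, -0.0049 to 0.11 for the second and -0.035 to 0.040 for the fifth Marcks probe set, -0.0077 to 0.066 for Prkci, and -0.059 to 0.065 for the Prkcb pair. Members with an unadjusted p below 0.05 numbered 2 with array weights, 2 with the CA1 covariate, 1 with the replicate block and 0 to 1 without single rats. Replicate numbers were not taken as pairs, since deviations of same-numbered rats correlated between -0.28 and 0.26; yet 4 of 7 controls correlated best with their own number, a hint from the data and not the design. Under the replicate block, the fourth Marcks probe set had an unadjusted p = 0.0489 in limma and an adjusted p = 0.352. Over all probe sets, 1 passed adjustment with the oligodendrocyte covariate and 0 to 1 without single rats (1 without control replicate 6, learning replicate 1 or learning replicate 4); 801 had an unadjusted p below 0.05 with the thalamic covariate, and 942 to 1375 without single rats. Within-gene pairs past adjustment numbered 4, but 7 without filter, 21 at a mean of at least 6, 7 with array weights, 0 with the CA1, meningeal or thalamic covariate, 2 with the oligodendrocyte covariate, and 0 to 11 without single rats (0 in 8 of the 14 such fits, 11 without control replicate 6). The cause of these shifts was not tested. At a mean of at least 6, Prkcd, the dim Gap43 and the fifth Marcks probe set gave no value.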
